A study of Mus musculus with 72 samples.

Results

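Ppara, Fabp1, Aldh3a2, Cpt1a, Cpt2, Slc25a20, Acadvl, Acadm, Hadha and Hadhb were followed in mouse liver by genotype, microbial status and time of day. The genes were chosen by name, as the rows of the count table whose Ensembl identifiers map to these 10 symbols, and all 10 were found among 55573 genes. Earlier results of these data were known at the choice. The paper had plotted Ppara, Fabp1, Aldh3a2 and Cpt1a in these livers among transcripts of which it reported many as reduced in LKO mice. Livers came from adult male C57BL/6 mice under a 12:12 light/dark cycle, in 4 groups of 18 libraries. WT mice were Bmal1 fl/fl, and LKO mice were Bmal1 fl/fl with Albumin-cre, so the floxed allele was present in every animal. Cre was driven by the albumin promoter, which acts in hepatocytes. Bmal1 in the other cells of the liver was not measured apart. Each genotype was studied with a conventional microbiota (specific pathogen free, SPF) or germ free (GF), the GF line having been rederived and kept in isolators. In each group 3 mice were killed at each of 6 zeitgeber times (ZT, counted in hours after the lights came on), every 4 h from ZT2 to ZT22. The comparisons asked how loss of the liver clock and absence of gut microbes altered hepatic expression of these genes over the day.

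Fatty acids that enter a hepatocyte are carried in the cytosol by FABP1, activated to acyl-CoA, moved into the mitochondrion as acylcarnitines by CPT1A, SLC25A20 and CPT2, and shortened by cycles of beta-oxidation, in which acyl-CoA dehydrogenases such as ACADVL and ACADM take the first step and the trifunctional protein of HADHA and HADHB the later steps for long chains. PPARA is a nuclear receptor that is activated by fatty acids and, as a heterodimer with RXR, raises transcription of many genes of this pathway in the fasted liver. BMAL1 with its partner CLOCK or NPAS2 activates transcription from E-boxes, and the liver clock is known to influence the daily timing of lipid metabolism.

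Libraries held 17369927 to 22076113 counts. CPM below are counts relative to library size, scaled by edgeR's TMM factors. A gene was called when p fell under 0.05 after Benjamini-Hochberg adjustment over all genes tested (quasi-likelihood test of edgeR). The mice were separate animals, so p-values at single times measure the spread between mice. That spread was estimated jointly over all 4 groups, from the 12 libraries of a ZT. SPF libraries, also those against their labels, therefore enter the p-values and standard errors of GF comparisons at the same ZT, and GF libraries those of SPF comparisons. The tests with all ZT pooled had no ZT term, so there the spread also holds differences between times of day.

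Clock genes placed 4 of the 72 libraries against their labels, and these are given with and without. Npas2, which was high in LKO livers (median 24.6 CPM in SPF LKO and 26.2 in GF LKO, against 0.28 in SPF WT and 0.335 in GF WT), was 0.221 CPM for SPF LKO ZT14 replicate 2 and 1.83 CPM for SPF LKO ZT18 replicate 1. The other SPF LKO libraries at those times held 24.0 to 36.4 CPM. SPF WT ZT14 replicate 3 had 84.8 CPM of Nr1d1, a REV-ERB repressor of the clock, where the other replicates had 8.55 and 3.07, whereas GF WT ZT6 replicate 3 had 9.39 against 51.1 and 49.1. Arntl, the Bmal1 gene itself, was counted over the whole gene and so does not by itself check the deletion: it ranged from 0.626 to 39.5 CPM in SPF WT, 8.52 to 29.3 in SPF LKO, 0.332 to 41 in GF WT and 7.06 to 13.4 in GF LKO.

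In the mm10 coordinates of the count table, Ppara lies at chr15:85734983-85802819 on the plus strand, Fabp1 at chr6:71199827-71205023 (plus), Aldh3a2 at chr11:61223417-61267464 (minus), Cpt1a at chr19:3322334-3385733 (plus), Cpt2 at chr4:107903981-107923610 (minus), Slc25a20 at chr9:108662088-108684641 (plus), Acadvl at chr11:70010183-70015411 (minus), Acadm at chr3:153922357-153944632 (minus), Hadha at chr5:30118304-30155162 (minus) and Hadhb at chr5:30155248-30184593 (plus). Counts were summed over the exons of each gene.

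Promoters are shown for 3 genes the results turn on: Aldh3a2, which fell the most in LKO liver; Fabp1, the next; and Cpt1a, whose rhythm was called in every group. Each window runs from 250 bases before to 50 after the start site (RefSeq, GRCm38.p6), 5′ to 3′ on the strand of the gene, and capitals mark motif matches. The Aldh3a2 window lies at chr11:61267137-61267436 on the minus strand, with the E-box CACGTG in capitals, the Fabp1 window at chr6:71199629-71199928 on the plus strand and the Cpt1a window at chr19:3323051-3323350 on the plus strand, both with the nuclear receptor half-site AGGTCA, here on the opposite strand, in capitals.
Aldh3a2: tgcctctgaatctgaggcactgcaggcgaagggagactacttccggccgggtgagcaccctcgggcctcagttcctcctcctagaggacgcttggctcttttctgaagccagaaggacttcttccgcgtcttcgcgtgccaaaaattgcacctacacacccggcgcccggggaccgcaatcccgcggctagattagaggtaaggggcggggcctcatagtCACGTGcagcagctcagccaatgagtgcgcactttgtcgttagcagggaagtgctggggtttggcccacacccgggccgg
Fabp1: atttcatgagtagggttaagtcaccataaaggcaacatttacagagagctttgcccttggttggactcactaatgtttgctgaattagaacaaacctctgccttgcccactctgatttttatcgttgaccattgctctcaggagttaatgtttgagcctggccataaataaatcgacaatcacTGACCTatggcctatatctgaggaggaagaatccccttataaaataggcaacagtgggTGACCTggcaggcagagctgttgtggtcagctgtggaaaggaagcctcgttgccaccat
Cpt1a: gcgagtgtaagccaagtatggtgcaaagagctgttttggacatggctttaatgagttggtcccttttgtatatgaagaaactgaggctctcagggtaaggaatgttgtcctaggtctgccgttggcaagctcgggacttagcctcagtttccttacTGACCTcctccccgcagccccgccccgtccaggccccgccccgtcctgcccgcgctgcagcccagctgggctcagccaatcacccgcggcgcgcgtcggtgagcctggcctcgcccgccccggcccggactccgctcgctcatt

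Motifs were searched as exact letters on both strands of the 10 windows. The E-box CACGTG was in the Aldh3a2 window alone, from base -30 to -25 relative to the start site, and in 7.15% of 32851 RefSeq promoter windows of the same length. The half-site AGGTCA was in 4 of the 10 windows, against 16.3% of all: Fabp1 had it at -67 to -62 and again at -9 to -4, Cpt1a at -94 to -89, Acadvl at -87 to -82 and Acadm at -249 to -244. The E-prime-box CACGTT (4.68% of all windows) and the D-box TTATG directly followed by TAA (0.938%) were in none of the 10 windows. Also absent were 2 copies of AGGTCA with 1 base between, a strict spelling of the PPAR response element (0.0396%). The same held for AGGTCA preceded by AAGT, the core of the ROR element (0.0609%). The half-site is part of the last pair of motifs. Sites that depart from these letters were not searched. A match describes letters, and a missing one says only that these letters were not in this window. The start sites of Hadha, on the minus strand of chromosome 5, and Hadhb, on the plus strand, lay 273 bases apart, so their windows shared 228 bases.

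Per length of exon, Fabp1 was by far the most abundant of the 10, with a mean of 8150 RPKM (SD 3370, n = 72) and rank 6 of 33349 genes with counts. Acadvl followed at 96.6 ± 9.72 RPKM, Acadm at 83.9 ± 12.1, Cpt2 at 59.5 ± 9.86, Aldh3a2 at 54.3 ± 34.9, Cpt1a at 46.7 ± 18.1, Hadha at 41.8 ± 5.30, Slc25a20 at 26.2 ± 6.73 and Ppara at 22.5 ± 9.09 (SD, n = 72). Spread over all libraries was wider than the gap between neighbours in that order from Cpt2 to Hadha and between Slc25a20 and Ppara. Hadhb was at 4.95 ± 0.757 RPKM, although its product forms one complex with HADHA. Of the 50-base windows of its longest coding transcript, 62.4% also occur in transcripts of other genes, mainly the pseudogene Gm13910 (median 24 counts), and reads that align to several places were not counted, so its level may be understated. Acadvl shares 42.85% of its exon bases with Dvl2 on the other strand, and reads there were left out too.

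**Figure D1:**
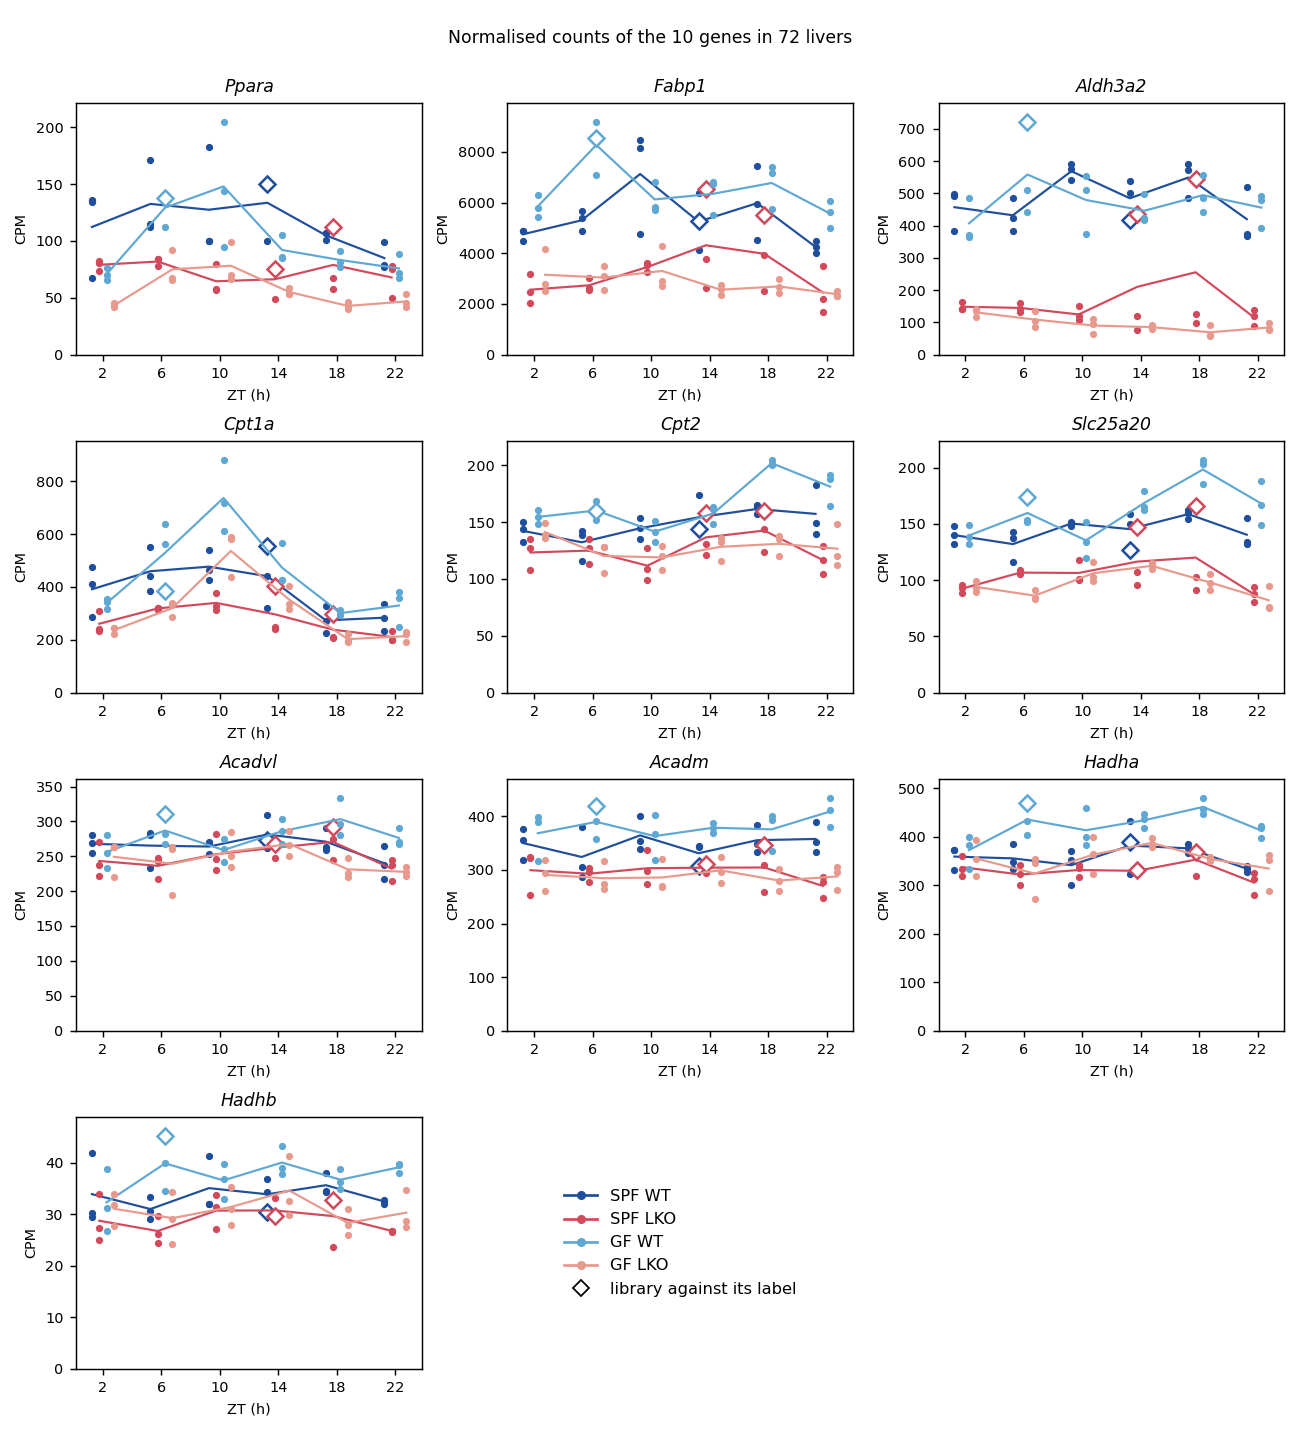
CPM (y axis, from 0) of the 10 genes against ZT in hours (x axis). Each point is 1 mouse, lines join the means of 3 mice, colours give the 4 groups and open diamonds the 4 libraries that go against their labels. Aldh3a2 shows the widest gap between genotypes, Cpt1a the clearest daily wave, and the 2 LKO diamonds lie among the WT points for Aldh3a2.

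LKO livers held less of these transcripts than WT livers with either microbial status. In SPF mice 9 of the 10 were called lower with all ZT pooled, where 11.5% of the 13159 genes tested were called lower and 11.6% higher. In GF mice all 10 were called lower, where 15.2% of 12662 genes were called lower and 15.6% higher. The median log2 fold change of the 10 was -0.36 in SPF and -0.46 in GF mice, against -0.005 and 0.008 over all genes tested. Because the 10 were chosen with earlier results of these data known, their counts beside these shares are a description and no independent test. The counts were the same, 9 and 10, without the 4 libraries that go against their labels and by DESeq2. In bulk liver, fewer hepatocytes and less RNA per hepatocyte cannot be told apart. Of 10 hepatocyte markers, 1 was called lower and 1 higher in SPF LKO liver, and 3 lower and 3 higher in GF LKO liver. The one with a large change was Alb, whose median went from 83700 to 36400 CPM in SPF and from 104000 to 32200 in GF mice. The summed level of the other 9 ranged from 31400 to 43800 CPM in SPF WT and 30600 to 43400 in SPF LKO, and from 45300 to 53700 in GF WT and 42900 to 53500 in GF LKO.

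Of 9 Kupffer cell markers, 6 were called lower in SPF LKO and 4 in GF LKO liver, and their sum ranged from 260 to 664 CPM in SPF WT, 241 to 396 in SPF LKO, 220 to 426 in GF WT and 172 to 371 in GF LKO. Cholangiocyte markers had 1 of 5 tested higher in SPF LKO and 2 of 5 in GF LKO, with sums of 33.4 to 99.3 CPM in SPF WT, 31.4 to 137 in SPF LKO, 27.6 to 58 in GF WT and 45.3 to 163 in GF LKO. Endothelial markers (sums of 190 to 338 CPM over all groups) had 1 of 7 lower in SPF and 1 of 7 higher in GF mice, and stellate cell markers (256 to 487 CPM) 1 of 7 higher in SPF and 2 of 7 in GF mice. Adipocyte markers summed to at most 11.7 CPM and lymphocyte markers to at most 14.1 CPM. The 1 adipocyte marker abundant enough to test was called lower in LKO liver of both SPF and GF mice, no lymphocyte marker was called (3 were tested in SPF and 1 in GF mice by edgeR), and 5 of the 6 pancreas markers with counts were at a median under 0.1 CPM, the sixth, Cela1, being called higher in LKO liver of both. Their sum ranged from 19.7 to 54.9 CPM (median 28.1) in SPF WT, 24.7 to 105 (median 77.5) in SPF LKO, 31.2 to 72.3 (median 45.7) in GF WT and 71.1 to 137 (median 107) in GF LKO. Over all genes tested, 11.5% were called lower and 11.6% higher in SPF LKO liver, and 15.2% and 15.6% in GF LKO liver. The part of these cells in the results was not tested.

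Ppara, the receptor, ranged from 67 to 183 CPM with a median of 107 in SPF WT and from 48.7 to 112 with a median of 75.3 in SPF LKO. The groups overlapped, with 5 of 18 LKO libraries below every WT library. The log2 fold change was -0.67 ± 0.11 (SE), so that the level fell by 37.3% (adjusted p = 1.98e-05, edgeR). In GF mice the range was 65.4 to 205 CPM (median 87.4) in WT and 40.1 to 98.7 (median 53.3) in LKO, where 12 of 18 LKO libraries lay below every WT library, and the log2 fold change was -0.80 ± 0.14 (adjusted p = 1.52e-05).

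Fabp1, the cytosolic carrier of fatty acids, ranged from 4010 to 8470 CPM (median 4880) in SPF WT and from 1660 to 6540 (median 3100) in SPF LKO, and the 2 highest LKO values, 6540 and 5500 CPM, belonged to SPF LKO ZT14 replicate 2 and SPF LKO ZT18 replicate 1. The log2 fold change was -0.75 ± 0.14 (adjusted p = 6.21e-05), and -0.91 ± 0.12 without the 4 libraries. In GF mice, where the range was 5000 to 9190 CPM (median 6190) in WT and 2310 to 4300 (median 2680) in LKO, the groups did not overlap, and the log2 fold change was -1.18 ± 0.08 (adjusted p = 1.99e-14).

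Aldh3a2 encodes a fatty aldehyde dehydrogenase, which turns long-chain aldehydes into fatty acids. It ranged from 367 to 592 CPM (median 495) in SPF WT and from 76.6 to 543 (median 135) in SPF LKO. The groups overlapped through 2 libraries only, SPF LKO ZT14 replicate 2 with 435 CPM and SPF LKO ZT18 replicate 1 with 543 CPM, and the other 16 LKO libraries were below every WT library. The log2 fold change was -1.55 ± 0.19, so that the level fell by 65.9% (adjusted p = 8.66e-08), and -1.96 ± 0.09 without the 4 libraries (adjusted p = 1.53e-18). In GF mice the range was 365 to 722 CPM (median 482) in WT and 56.6 to 141 (median 91.7) in LKO, with no overlap, and the log2 fold change was -2.32 ± 0.11, so that the level fell by 79.9% (adjusted p = 7.11e-20).

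Cpt1a, the outer membrane transferase that commits long-chain fatty acids to oxidation, ranged from 224 to 557 CPM (median 398) in SPF WT and 199 to 403 (median 273) in SPF LKO, with a log2 fold change of -0.49 ± 0.12 (adjusted p = 0.00215). In GF mice it ranged from 249 to 882 CPM (median 384) in WT and 190 to 589 (median 267) in LKO, and the log2 fold change was -0.53 ± 0.17 (adjusted p = 0.0123). Both pairs of groups overlapped, and much of the spread within a group was between times of day. The GF call was lost without replicate 1 (adjusted p = 0.0504), without replicate 2 (0.115) and without ZT6 (0.0554).

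Slc25a20, the carnitine-acylcarnitine carrier of the inner membrane, ranged from 116 to 162 CPM (median 148) in SPF WT and 80.8 to 166 (median 101) in SPF LKO, where 15 of 18 LKO libraries lay below every WT library. Its log2 fold change was -0.47 ± 0.07 (adjusted p = 2.19e-06). In GF mice the ranges of 120 to 207 CPM (median 158) in WT and 75.1 to 116 (median 96.1) in LKO did not overlap, and the log2 fold change was -0.74 ± 0.07 (adjusted p = 1.22e-11). Cpt2, the inner membrane transferase, ranged from 116 to 183 CPM (median 145) in SPF WT, 99.2 to 160 (median 127) in SPF LKO, 133 to 205 (median 162) in GF WT and 105 to 149 (median 129) in GF LKO. Its log2 fold changes of -0.24 ± 0.06 in SPF mice (adjusted p = 0.00124) and -0.37 ± 0.06 in GF mice (adjusted p = 1.57e-06) came from groups that overlapped.

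Acadm, the medium-chain acyl-CoA dehydrogenase, ranged from 287 to 400 CPM (median 347) in SPF WT, 248 to 347 (median 298) in SPF LKO, 317 to 435 (median 389) in GF WT and 261 to 325 (median 286) in GF LKO. It fell by 15.2% in SPF (log2 fold change -0.24 ± 0.05, adjusted p = 0.00018) and by 23.9% in GF mice (-0.39 ± 0.04, adjusted p = 1.1e-09). Acadvl, the very long-chain acyl-CoA dehydrogenase, ranged from 218 to 309 CPM (median 267) in SPF WT, 215 to 292 (median 245) in SPF LKO, 233 to 334 (median 278) in GF WT and 195 to 286 (median 250) in GF LKO. Its log2 fold change was -0.09 ± 0.04 in SPF mice, which was not called (adjusted p = 0.119), and -0.17 ± 0.05 in GF mice, which was (adjusted p = 0.00411), though lost without replicate 2 (0.0523) or ZT18 (0.0552). The difference between the 2 effects was itself not called (-0.09 ± 0.06, adjusted p = 0.94).

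Hadha, the alpha subunit of the trifunctional protein, ranged from 301 to 433 CPM (median 360) in SPF WT, 279 to 370 (median 329) in SPF LKO, 334 to 480 (median 420) in GF WT and 272 to 400 (median 353) in GF LKO. Its log2 fold change was -0.12 ± 0.04 in SPF mice (adjusted p = 0.0238) against -0.25 ± 0.05 in GF mice (adjusted p = 5.93e-05). The SPF call was not stable: it was lost when any of the 3 replicate numbers was left out (adjusted p of 0.0745 to 0.161), without ZT2, ZT6 or ZT14 (0.0681 to 0.0944) and without the filter on low counts (0.112). Hadhb, the beta subunit, ranged from 29 to 41.9 CPM (median 32.7) in SPF WT, 23.6 to 33.9 (median 28.2) in SPF LKO, 26.8 to 45.2 (median 38.4) in GF WT and 24.2 to 41.3 (median 30.4) in GF LKO. The log2 fold change was -0.23 ± 0.06 in SPF mice (adjusted p = 0.00226), lost without replicate 2 (0.0673), and -0.27 ± 0.06 in GF mice (adjusted p = 0.000424).

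**Figure D2:**
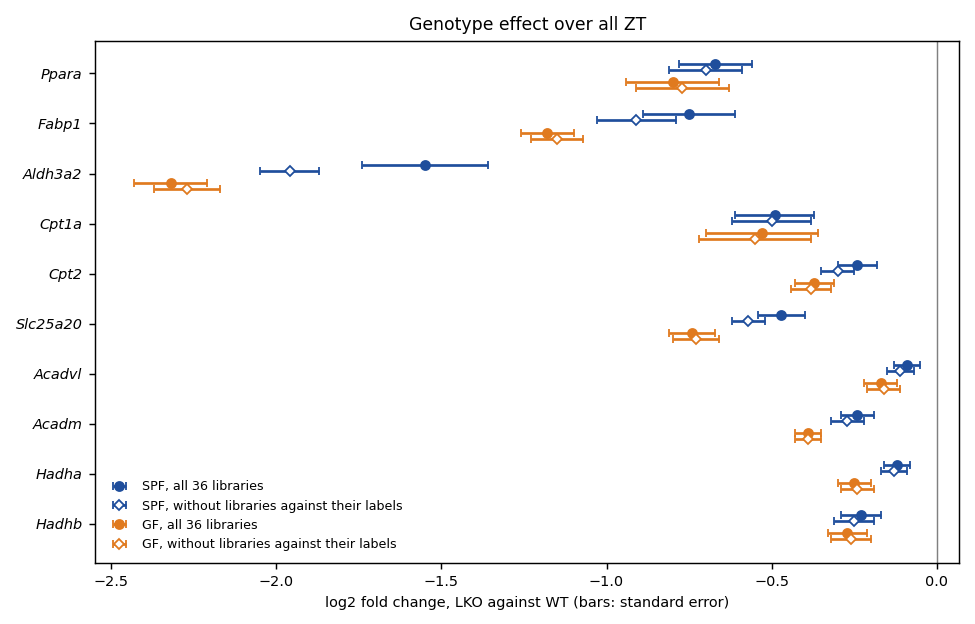
Log2 fold change of LKO against WT with all ZT pooled (x axis) for the 10 genes (y axis), in SPF (blue) and GF (orange) mice, with bars for the standard error. Filled circles use all libraries of both groups and open diamonds leave out the libraries that go against their labels. All values lie below 0, from -2.32 for Aldh3a2 in GF to -0.09 for Acadvl in SPF mice, and the diamonds move mainly Aldh3a2 in SPF mice, from -1.55 to -1.96.

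The genotype effect was more negative in GF than in SPF mice for each of the 10 genes, but the difference was called for none (59 of 13484 genes, 0.438%, were called). By unadjusted p 5 members passed 0.05, as did 6.5% of all genes, and DESeq2 called 0. The difference was -0.77 ± 0.22 on the log2 scale for Aldh3a2 (adjusted p = 0.116), -0.44 ± 0.16 for Fabp1 (0.405), -0.28 ± 0.10 for Slc25a20 (0.327), -0.16 ± 0.06 for Acadm (0.423) and -0.13 ± 0.06 for Hadha (0.708). It was smaller without the 4 libraries: -0.32 ± 0.14 for Aldh3a2 (adjusted p = 0.68) and -0.25 ± 0.14 for Fabp1 (0.916). Ppara and Cpt1a differed by -0.14 ± 0.18 and -0.05 ± 0.21, differences smaller than their standard errors.

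At single times of day, with 3 mice per group, 16 of the 60 combinations of gene and ZT were called lower in SPF LKO liver and 32 of 60 in GF LKO liver, and 0 were called higher in either by edgeR or DESeq2, with 0 at an unadjusted p under 0.05. In SPF mice the calls were 4 members at ZT2 (3.24% of all genes tested were called lower), 3 at ZT6 (3.39%), 5 at ZT10 (6.05%) and 4 at ZT22 (1.81%). At ZT14 and ZT18, the times that hold 3 of the libraries against their labels, 0 members were called by edgeR, where 0.0% and 0.015% of all genes were. At each of these times 4 members passed an unadjusted p of 0.05, as did 1484 of 13317 genes at ZT14 and 1413 of 13326 at ZT18 in either direction. DESeq2 called 1, Ppara, at ZT14 and 0 at ZT18. In GF mice 3 members were called at ZT2 (1.92% of all genes), 8 at ZT6 (6.07%) and 3 at ZT10 (6.79%) by day. By night there were 4 for ZT14 (3.18%), 8 for ZT18 (4.28%) and 6 for ZT22 (2.5%).

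Calls at 1 time often changed when 1 library was left out. When each of the 6 libraries of a comparison was left out in turn, 9 of the 16 calls in SPF and 14 of the 32 in GF mice were made in all 6 fits, while 5 and 15 were made in at most 2 of the 6. Those made in 0 of 6 were Acadm at SPF ZT22 (adjusted p of 0.0781 to 0.183), Ppara at GF ZT14 (0.0658 to 0.126) and GF ZT22 (0.0574 to 0.182), Slc25a20 at GF ZT14 (0.0729 to 0.123), Cpt2 at GF ZT6 (0.0503 to 0.127) and Cpt1a at GF ZT18 (0.0658 to 0.133). Fabp1 and Aldh3a2 at GF ZT14 were called in 1 of 6 each, so that no call of that time was made in more than 1 fit. Each of these fits kept the 6 libraries of the other 2 groups, which shared the estimate of the spread. At ZT14, SPF LKO replicate 2 and SPF WT replicate 3 thus stayed in every GF fit. Aldh3a2 at GF ZT14 was 497, 423 and 418 CPM in WT against 80.7, 81.2 and 93.0 in LKO, without overlap. The part of the SPF libraries in these adjusted p-values was not tested.

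**Figure D3:**
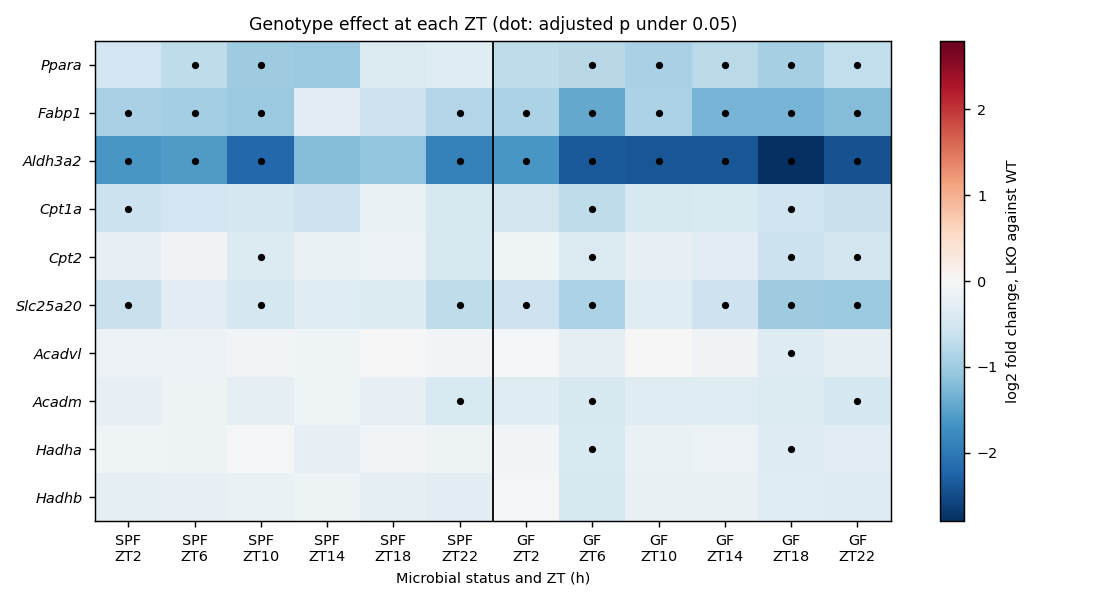
Log2 fold change of LKO against WT at each ZT (columns, SPF left and GF right of the black line) for the 10 genes (rows). Blue is lower in LKO, the colour bar gives the scale and a dot marks an adjusted p under 0.05. Aldh3a2 is the darkest row, from -1.11 to -2.20 in SPF and -1.63 to -2.81 in GF mice, and the SPF columns at ZT14 and ZT18 hold no dot.

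Aldh3a2 was called at 4 ZT in SPF mice and at all 6 in GF mice, and each of these calls but GF ZT14 was also made in all 6 fits without 1 library. At ZT10, SPF WT mice had 574, 591 and 541 CPM and SPF LKO mice 118, 106 and 149, with no overlap and a log2 fold change of -2.20 ± 0.20 (adjusted p = 4.32e-06). At ZT14, SPF WT mice had 500, 537 and 417 CPM and SPF LKO mice 118, 435 and 76.6. One LKO library lay inside the WT range, and the log2 fold change was -1.22 ± 0.46 (adjusted p = 0.363), or -2.32 ± 0.19 without it (adjusted p = 3.04e-05). At ZT18 the WT values were 571, 592 and 484 CPM and the LKO values 543, 96.4 and 126, and the log2 fold change went from -1.11 ± 0.47 (adjusted p = 0.433) to -2.29 ± 0.21 without the first (adjusted p = 4.42e-05). In GF mice the gap was widest at ZT18, where WT mice had 484, 557 and 442 CPM and LKO mice 56.6, 90.4 and 60.3 (log2 fold change -2.81 ± 0.50, adjusted p = 0.007), and narrowest at ZT2, with 371, 365 and 485 against 141, 136 and 115 CPM (-1.63 ± 0.14, adjusted p = 1.9e-05). The ZT18 fit, whose standard error was larger, also held the SPF LKO library with 543 CPM. The part of that library in the error was not tested.

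Fabp1 was called at the same 4 ZT in SPF mice (log2 fold changes of -0.81 to -1.04) and at all 6 in GF mice (-0.88 to -1.44). Its SPF ZT22 call was made in 1 of the 6 fits without 1 library (adjusted p of 0.00134 to 0.148) and its GF ZT2 call in 2 (0.00267 to 0.0856). Its largest effect was at ZT6 in GF mice, where WT livers had 9190, 7090 and 8540 CPM and LKO livers 2540, 3090 and 3490 (-1.44 ± 0.15, adjusted p = 5.82e-05). Ppara was called at ZT6 and ZT10 in SPF mice and at all times but ZT2 in GF mice, where ZT18 was the time whose call was made in all 6 fits without 1 library. At ZT14 its SPF WT values were 100, 151 and 150 CPM and its SPF LKO values 48.7, 75 and 75.2, which did not overlap, and the log2 fold change was -1.03 ± 0.18 (adjusted p = 0.117), or -1.12 ± 0.21 without SPF LKO replicate 2 of that time (adjusted p = 0.00743). At ZT18 omitting SPF LKO replicate 1 moved it from -0.40 ± 0.18 (adjusted p = 0.455) to -0.73 ± 0.11 (adjusted p = 0.00176).

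Slc25a20 was called at ZT2, ZT10 and ZT22 in SPF mice and at all times but ZT10 in GF mice, with its largest effect at ZT22, where GF WT livers had 149, 188 and 167 CPM and GF LKO livers 75.1, 94.7 and 76.4 (log2 fold change -1.03 ± 0.12, adjusted p = 0.000209). Cpt1a was called at ZT2 in SPF mice, with 476, 287 and 411 CPM in WT against 234, 309 and 239 in LKO (-0.61 ± 0.16, adjusted p = 0.0389, called in 2 of 6 fits without 1 library), and at ZT6 and ZT18 in GF mice. Cpt2 was called at ZT10 in SPF and at ZT6, ZT18 and ZT22 in GF mice, Acadm at ZT22 in SPF and at ZT6 and ZT22 in GF mice, Hadha at ZT6 and ZT18 and Acadvl at ZT18 in GF mice, and Hadhb at no time. Of these Cpt2, Acadm, Hadha and Acadvl calls, Cpt2 at GF ZT18 was made in all 6 fits without 1 library (adjusted p of 0.0168 to 0.0282) and the others in 0 to 2. At GF ZT6, omitting GF WT replicate 3 ended the calls of Acadm (adjusted p = 0.0819), Cpt2 (0.0587) and Hadha (0.091).

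Fewer of these genes were called between GF and SPF mice than between genotypes. These comparisons use the same 4 groups as those between genotypes, so they share their samples. In WT mice 1 of the 10, Hadha, was called higher in GF liver, where 14.2% of 12776 genes were called higher and 17.7% lower. The median log2 fold change of the 10 was 0.13, against -0.020 over all genes. Hadha had 301 to 433 CPM in SPF WT (median 360) and 334 to 480 in GF WT (median 420). Its mean was higher in GF mice at all 6 ZT and its log2 fold change was 0.21 ± 0.04 (adjusted p = 0.000569). The 9 hepatocyte markers other than Alb also summed to more in GF WT (45300 to 53700 CPM) than in SPF WT liver (31400 to 43800), without overlap. The part of that difference in the Hadha result was not tested. Another 5 members had an unadjusted p under 0.05 in the same direction without being called, where 42.5% of all genes tested passed it in either direction, and DESeq2 called 4 in all (Hadha, Acadm, Cpt2 and Fabp1). None was called lower by either tool or by unadjusted p, but Ppara, with a log2 fold change of -0.25 ± 0.14 (adjusted p = 0.165), was called lower with ZT as a covariate (-0.29, adjusted p = 0.0364), with a replicate block (-0.27, 0.0466) and without ZT10 (-0.36, 0.0289).

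In LKO mice 2 of the 10 were called lower in GF liver, where 18.4% of 13010 genes were called lower and 18.1% higher, and the median log2 fold change of the 10 was -0.04, against -0.017 over all genes. Aldh3a2 had 76.6 to 543 CPM (median 135) in SPF LKO and 56.6 to 141 (median 91.7) in GF LKO, with a log2 fold change of -0.82 ± 0.20 (adjusted p = 0.00151). Without the 4 libraries it was -0.42 ± 0.11 (adjusted p = 0.00354). Ppara had 48.7 to 112 CPM (median 75.3) in SPF LKO and 40.1 to 98.7 (median 53.3) in GF LKO, with a log2 fold change of -0.37 ± 0.11 (adjusted p = 0.0106). This call was lost without ZT2 (adjusted p = 0.103), without ZT18 (0.0637) and without replicate 2 (0.181). By edgeR and by DESeq2, 0 members were called higher, and 1 had an unadjusted p under 0.05, where 45.2% of all genes tested passed it in either direction.

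At single times, 4 calls between GF and SPF mice were made, and 3 concerned Ppara. Without 1 library in turn, the Ppara calls were made in 1 of 6 fits in WT at ZT2 (adjusted p of 0.000542 to 0.16), 3 of 6 in LKO at ZT2 (0.0433 to 0.0723) and 2 of 6 in LKO at ZT18 (0.0112 to 0.112). At ZT2 Ppara was lower in GF than SPF mice of both genotypes. WT mice had 136, 67 and 134 CPM in SPF and 70.2, 65.4 and 76.6 in GF (log2 fold change -0.69 ± 0.20, adjusted p = 0.0437, with 4.01% of all genes called lower), so 1 SPF mouse lay among the GF values. LKO mice had 80.6, 82.8 and 73.7 CPM in SPF and 42.5, 45.3 and 41.7 in GF, without overlap (-0.88 ± 0.20, adjusted p = 0.0181, 3.21% called lower). At ZT18 SPF LKO mice had 112, 67.4 and 57.4 CPM and GF LKO mice 46.4, 40.1 and 42 (-0.86 ± 0.18, adjusted p = 0.0298, 1.43% called lower), and without the first, a library against its label, -0.54 ± 0.11 (adjusted p = 0.0542). The fourth call was Fabp1 at ZT6 in WT mice, higher in GF with 9190, 7090 and 8540 CPM against 5660, 5380 and 4860 (0.63 ± 0.15, adjusted p = 0.0461, 1.54% called higher). It was called in 1 of 6 fits without 1 library, and was 0.61 ± 0.16 without GF WT replicate 3 (adjusted p = 0.0544).

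Cpt1a had a 24 h rhythm in every group. A cosine with a period of 24 h was called for it in SPF WT (adjusted p = 0.0067), SPF LKO (0.00701), GF WT (7.43e-05) and GF LKO (6.98e-06). Rhythms were called for 16.9%, 24.5%, 29.4% and 38.6% of all genes tested in these groups, and for 1, 2, 4 and 4 of the 10 members. In GF WT mice Cpt1a went from 315, 356 and 344 CPM at ZT2 to 613, 717 and 882 at ZT10 and 311, 298 and 294 at ZT18. In GF LKO mice the values at the same times were 246, 220 and 243, then 582, 439 and 589, then 195, 190 and 222 CPM. In both groups the ZT10 values lay above those at ZT2 and ZT18 without overlap. The fitted peak-to-trough difference was 0.88 ± 0.19 on the log2 scale in SPF WT, 0.68 ± 0.15 in SPF LKO, 1.21 ± 0.18 in GF WT and 1.29 ± 0.15 in GF LKO. The fitted peak was at ZT 8.5 ± 0.8 h in SPF WT, 9.1 ± 0.8 h in SPF LKO, 9.4 ± 0.6 h in GF WT and 9.8 ± 0.5 h in GF LKO (SE), late in the light phase, when mice eat little. Neighbouring peaks in that order differed by less than their errors, and both SPF peaks were at ZT 7.9 without the libraries against their labels. The call in SPF WT was lost without replicate 2 (adjusted p = 0.099), and that in SPF LKO without replicate 3 (0.119) and with ZT as a factor in place of the cosine (0.0959).

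Ppara was rhythmic by this test in GF WT (adjusted p = 0.00129) and GF LKO mice (0.000261), with fitted peaks at ZT 9.4 ± 0.8 h and 8.9 ± 0.7 h and peak-to-trough differences of 0.94 ± 0.20 and 0.89 ± 0.15. In GF LKO liver it had 42.5, 45.3 and 41.7 CPM at ZT2, 91.9, 67.8 and 65.5 at ZT6, 66.1, 69.8 and 98.7 at ZT10 and 46.4, 40.1 and 42 at ZT18, so the daytime values at ZT6 and ZT10 lay above the others named. In SPF mice its rhythm was not called in WT (0.56 ± 0.24, adjusted p = 0.141) or LKO (0.24 ± 0.20, adjusted p = 0.632). SPF LKO values at ZT2, 80.6, 82.8 and 73.7 CPM, overlapped those at ZT6, 77.6, 83.7 and 84.4. The rhythm of Ppara differed between GF LKO and SPF LKO mice (adjusted p = 0.0382), where 5.34% of all genes were called. That call was lost with ZT as a factor (0.148) and without any of the 3 replicate numbers (0.0984 to 0.279).

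The other shuttle genes peaked at night in GF WT mice. Cpt2 was called rhythmic in GF WT (peak at ZT 19.9 ± 0.8 h, peak-to-trough 0.40 ± 0.08, adjusted p = 0.00459) and Slc25a20 in GF WT (peak at ZT 18.2 ± 1.1 h, 0.40 ± 0.11, adjusted p = 0.0233) and GF LKO mice (peak at ZT 12.8 ± 0.9 h, 0.37 ± 0.09, adjusted p = 0.00854). Cpt2 in GF WT liver had 201, 205 and 200 CPM at ZT18 and 133, 141 and 151 at ZT10, the reverse order of Cpt1a in the same livers. The 18.2 and 12.8 h peaks of Slc25a20 were not called different between the genotypes (adjusted p = 0.0781), but were without the libraries against their labels (0.0199) and with ZT as a factor (0.00402). Aldh3a2 was called rhythmic in GF LKO mice only (peak at ZT 4.3 ± 1.0 h, peak-to-trough 0.73 ± 0.20, adjusted p = 0.0069), at the low level of 56.6 to 141 CPM, and Fabp1 in SPF LKO mice only (peak at ZT 13.8 ± 1.3 h, 0.80 ± 0.27, adjusted p = 0.043). The Fabp1 call was lost without the libraries against their labels (adjusted p = 0.127), while Aldh3a2 (0.0283) and Slc25a20 (0.0237) gained a call in SPF LKO mice without them. It was also lost for Fabp1 with ZT as a factor (0.245), by limma (0.0616), with a replicate block (0.0592) and without any replicate number (0.109 to 0.155). Several calls rested on 1 replicate number: Cpt2 in GF WT was lost without replicate 2 (0.101), Slc25a20 in GF WT without replicate 1 (0.117) or 2 (0.219) and in GF LKO without replicate 3 (0.118), and Aldh3a2 in GF LKO without replicate 1 (0.0938) or 3 (0.0531). Acadvl, Acadm, Hadha and Hadhb had no called rhythm in any group, with peak-to-trough differences of 0.02 to 0.18.

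Between genotypes, 0 of the 10 rhythms were called different in SPF mice, where 1.12% of all genes were, and 0 in GF mice, where 6.38% were. By limma on log2 CPM 0 were called as well. By edgeR 0 in SPF and 2 in GF mice had an unadjusted p under 0.05, as did 1780 of 13159 and 2589 of 12662 genes. Without the 4 libraries the difference for Aldh3a2 was called in SPF mice (adjusted p = 0.0262) and also in GF mice (0.0312). Between GF and SPF mice of WT genotype 0 rhythms were called different by either tool and 0 by unadjusted p, where 0.047% of all genes were called, so the rhythm of Ppara that was called in GF WT and not in SPF WT was not shown to differ.

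**Figure D4:**
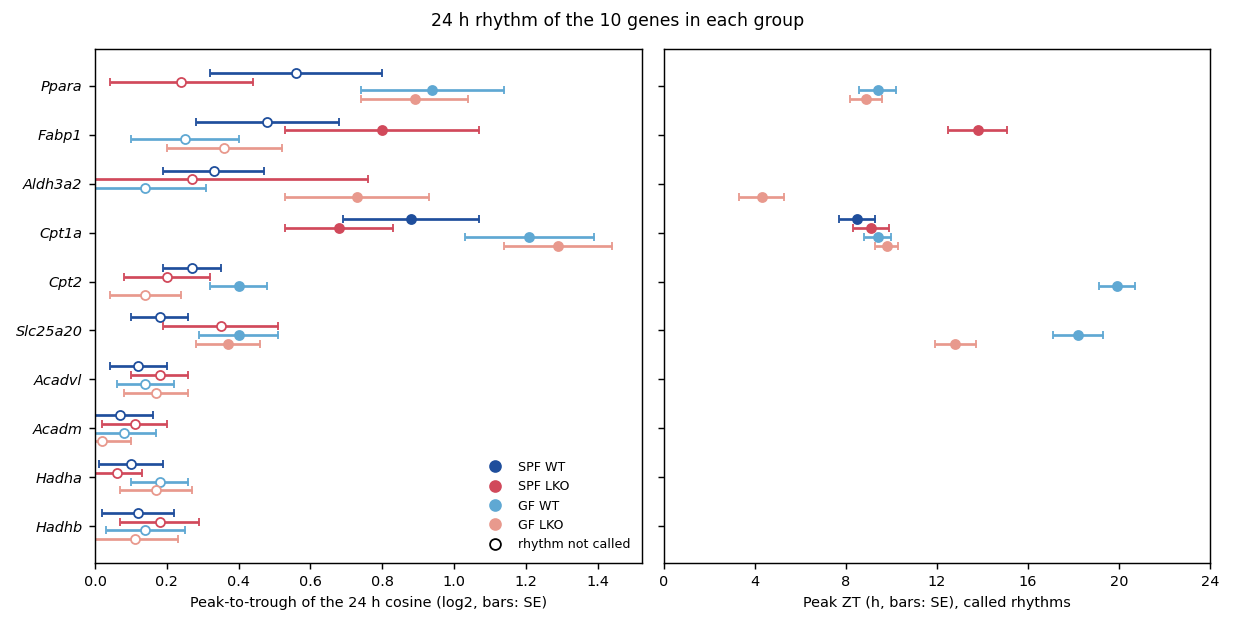
Fitted 24 h cosine of the 10 genes (y axis) in the 4 groups (colours). The left panel gives the peak-to-trough difference of log2(CPM + 1), with bars for the standard error and open circles for rhythms that were not called, and the right panel the peak ZT in hours of the called ones. The 4 Cpt1a peaks sit between ZT 8.5 and ZT 9.8, beside those of Ppara in GF mice, and Cpt2 and Slc25a20 of GF WT mice at ZT 19.9 and ZT 18.2.

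Over the 24 means of group and ZT, the members' levels on the log2(CPM + 1) scale correlated with a median Pearson r of 0.74 over 45 pairs (0.14 to 0.92). The means share libraries and the genotype step. Over the 12 WT means alone the median was 0.43 (-0.61 to 0.89) and over the 12 LKO means 0.36 (-0.39 to 0.83). Fabp1 and Aldh3a2 (0.92), Slc25a20 and Acadm (0.92) and Fabp1 with Slc25a20 or Acadm (0.91 each) were most alike over the 24 means. Hadha and Hadhb had an r of 0.86 over all means, 0.78 in WT and 0.76 in LKO, and Acadm and Hadhb 0.87, 0.79 and 0.47. Ppara and Cpt1a had 0.74 over all means, 0.72 in WT and 0.49 in LKO, and Ppara and Cpt2 -0.61 in WT. Among 11847 genes with a mean of at least 1 CPM, the 5 closest to Ppara were Mgrn1 (0.913), 5031439G07Rik (0.908), Abcd2 (0.897), Mia3 (0.896) and Txnip (0.894), and its nearest member, Aldh3a2, ranked 141. The 5 closest to Cpt1a were Klhl21 (0.932), Minpp1 (0.927), Pnpla2 (0.922), Zxdc (0.920) and Gpcpd1 (0.906), with Ppara at rank 223.

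Among 30 other genes of mitochondrial beta-oxidation and carnitine handling that were tested, 11 were called lower and 6 higher in SPF LKO liver (11.5% and 11.6% of all genes). In GF LKO liver 14 were called lower and 7 higher (15.2% and 15.6%). Median log2 fold changes were -0.02 in SPF and -0.13 in GF mice. This list and those below were chosen with earlier results of these data known. The largest common falls were in Crat, carnitine acetyltransferase (-0.64 ± 0.18 in SPF and -0.98 ± 0.25 in GF mice), Slc22a5, the carnitine transporter of the plasma membrane (-0.81 ± 0.11 and -0.92 ± 0.09), Eci2, an enoyl-CoA isomerase (-0.54 ± 0.12 and -0.72 ± 0.11), Decr1, the mitochondrial dienoyl-CoA reductase (-0.36 ± 0.08 and -0.65 ± 0.06), and Hsd17b10 (-0.45 ± 0.10 and -0.60 ± 0.07). Adjusted p-values of these 5 were 4.23e-07 to 0.00897 in SPF and 4.62e-12 to 0.00225 in GF mice. Against microbial status the list leaned the other way. In GF WT liver 21 of 30 were called higher and 1 lower (14.2% and 17.7% of all genes), with a median of 0.19. In GF LKO liver 14 were called higher and 0 lower (18.1% and 18.4%), with a median of 0.09. The 9 hepatocyte markers other than Alb leaned the same way, with sums of 31400 to 43800 CPM in SPF WT and 45300 to 53700 in GF WT. In LKO liver they were 30600 to 43400 in SPF and 42900 to 53500 in GF mice. Their part in the list result was not tested.

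Of 20 genes of fatty acid uptake, activation and binding, 6 were called lower and 2 higher in SPF LKO liver (11.5% and 11.6% of all genes). In GF LKO liver 10 were called lower and 2 higher (15.2% and 15.6%). The medians were -0.12 in SPF and -0.19 in GF mice. Without the libraries against their labels 9 were lower in SPF mice. Cd36, a fatty acid translocase, fell with a log2 fold change of -0.68 ± 0.11 in SPF mice (adjusted p = 1.02e-05) and -0.67 ± 0.12 in GF mice (4.42e-05), from means of 72.3 to 45.3 and 95.2 to 59.3 CPM. Slc27a1, a fatty acid transporter, fell with log2 fold changes of -0.57 ± 0.11 and -0.80 ± 0.13, and Acsm5, a medium-chain acyl-CoA synthetase, with -0.35 ± 0.06 and -0.55 ± 0.06. Fabp5, the epidermal binding protein, rose by 0.62 ± 0.22 (adjusted p = 0.0323) and 1.15 ± 0.17 (1.56e-06), and Scp2, a sterol and acyl-CoA carrier, by 0.32 ± 0.06 and 0.49 ± 0.06.

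Of 21 partners and relatives of PPARA, 6 were called lower and 2 higher in SPF LKO liver (11.5% and 11.6% of all genes). In GF LKO liver 5 were called lower and 2 higher (15.2% and 15.6%). The medians were -0.13 in SPF and -0.11 in GF mice. Ppard, the delta receptor, moved against Ppara, from a mean of 10.1 to 33.4 CPM in SPF and 14.0 to 36.6 in GF mice (log2 fold changes of 1.72 ± 0.28, adjusted p = 1.49e-05, and 1.39 ± 0.28, 0.000151). Pparg, the gamma receptor, was lower at -0.43 ± 0.14 and -1.09 ± 0.19, Lpin2 at -0.90 ± 0.21 and -0.96 ± 0.19, Ppargc1b, a coactivator of oxidative genes, at -0.68 ± 0.17 and -0.56 ± 0.19, and Creb3l3, a liver transcription factor of the fasting response, at -0.32 ± 0.06 and -0.42 ± 0.06.

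Of 35 other known PPARA targets, 19 were called lower and 1 higher in SPF LKO liver (11.5% and 11.6% of all genes). In GF LKO liver 21 were called lower and 2 higher (15.2% and 15.6%). Median log2 fold changes were -0.45 in SPF and -0.70 in GF mice. Without the libraries against their labels the SPF count was 22 lower and 2 higher. The largest common changes were in acyl-CoA thioesterases and fatty acid hydroxylases. Acot3 went from a mean of 7.04 to 1.82 CPM in SPF (log2 fold change -2.01 ± 0.57, adjusted p = 0.00806) and from 9.87 to 0.276 CPM in GF mice (-5.12 ± 0.44, 2.79e-12). Cyp4a10 went from 462 to 158 and from 715 to 112 CPM (-1.55 ± 0.23 and -2.67 ± 0.24), Cyp4a14 from 724 to 231 and from 1100 to 177 CPM (-1.66 ± 0.32 and -2.63 ± 0.41), Acaa1b, a peroxisomal thiolase, from 729 to 421 and from 767 to 235 CPM (-0.80 ± 0.13 and -1.70 ± 0.11), and Acot4 from 60.4 to 27.7 and from 63.9 to 20.1 CPM (-1.13 ± 0.20 and -1.66 ± 0.16). Some of these means had a wide spread. In SPF LKO liver the SD was 4.46 CPM for Acot3 and 207 for Cyp4a14, and in GF LKO liver 0.251 and 289. Cyp4a and Acot genes have close paralogs, so their counts are uncertain, and the Acot3 folds rest on few counts. For 4 targets the genotype effect was called more negative in GF than in SPF mice, where 0.438% of all genes were called in either direction. They were Acaa1b (-0.91 ± 0.17, adjusted p = 0.00115), Acot3 (-3.12 ± 0.79, 0.0464), Ehhadh (-0.61 ± 0.14, 0.0156) and Vnn3 (-0.64 ± 0.10, 3.87e-05). Without the libraries against their labels 3 of the list were called.

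**Figure D5:**
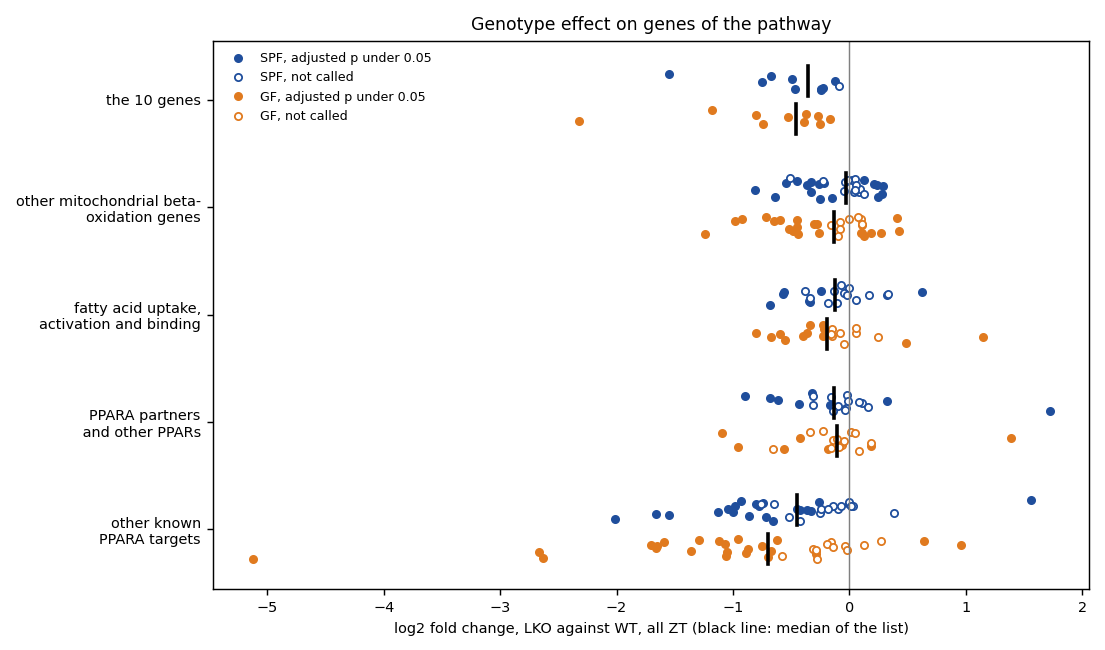
Log2 fold change of LKO against WT with all ZT pooled (x axis) for each tested gene of 5 lists (y axis), in SPF (blue) and GF (orange) mice. Filled points were called, open points were not, and black lines are list medians, which run from -0.45 (SPF) and -0.70 (GF) for the known PPARA targets to -0.02 and -0.13 for the other mitochondrial genes.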

How the data were processed

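Poly(A) RNA of 72 mouse livers was sequenced from a stranded kit as single-end reads. The authors aligned the reads to mm10 with STAR 2.6.1b and deposited whole-number counts per gene from featureCounts 2.0.0 with Ensembl annotation; strand was not used, and reads that aligned to several places or genes were left out. The table held 55573 genes (55394 with a symbol, 22224 without a count), 0 of its columns were unused and 0 pairs of libraries were identical. Totals were 17369927 to 22076113.

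Groups came from the sample titles. Counts were tested in R 4.3.3 with edgeR 4.0.16 (TMM, filterByExpr, quasi-likelihood test, Benjamini-Hochberg over all genes tested, threshold 0.05): genotype within SPF or GF and microbial status within WT or LKO with all ZT pooled, their interaction, the same at each ZT from the 12 libraries of that time, and cosine and sine terms with a 24 h period. Peaks and amplitudes were least squares fits to log2(CPM + 1), and RPKM used the gene lengths of the table. DESeq2 1.42.0, limma 3.58.1 on log2 CPM, RLE factors, no filter, a ZT term, a replicate block, and leaving out replicates, ZT or libraries were alternatives. Scripts (Python 3.11.15, numpy 2.4.6, pandas 2.3.3, matplotlib 3.10.9) were tested on simulated data.

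The members and lists were chosen with earlier results of these data known. From each list up to 5 genes are named, those with the largest change among genes called in the same direction in both genotype comparisons with a mean of at least 1 CPM. For Ppara and Cpt1a the 5 most correlated genes are named.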

Additional observations from a re-analysis of the deposited data

Results flagged for a closer look

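The daily pattern of Ppara was called different between GF LKO and SPF LKO mice in the test of the difference itself (adjusted p = 0.0382, edgeR). The call was not stable: it was lost with ZT as a factor (0.148) and when any replicate number was left out (0.0984 to 0.279). The fitted peak-to-trough difference was 0.89 ± 0.15 on the log2 scale in GF LKO and 0.24 ± 0.20 in SPF LKO liver (SE). Means were 43.1 CPM in GF LKO and 79.0 CPM in SPF LKO mice at ZT2, and 75.1 and 81.9 CPM at ZT6. The same test in WT mice was not called (adjusted p = 0.73).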

How the results depend on the processing

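With all ZT pooled, the number of members called lower in LKO liver was 8 to 9 in SPF mice under another test, scaling, filter or covariate (7 to 8 when a replicate number was left out) and 10 in GF mice (8 to 10). The members called higher in GF WT liver, 1 in the report, were 4 by DESeq2, 4 with RLE factors, 3 without a filter on low counts, 4 with ZT as a covariate, 2 without ZT2 and 5 without ZT10. Those called lower in GF LKO liver, 2 in the report, were 1 without ZT2, 1 without ZT18 and 1 to 2 with a replicate left out. The cause was not tested.

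Rhythm calls in SPF WT (1) were 2 without a filter and 0 to 1 with a replicate left out. Those in SPF LKO (2) were 0 with ZT as a factor, 1 by limma and 0 to 1 with a replicate left out, and those in GF WT and GF LKO (4 each) were 2 to 4. Rhythm differences between genotypes were 1 in SPF mice without the 4 libraries against their labels, and in GF mice 2 without them and 1 with ZT as a factor. Between GF and SPF LKO mice (1) they were 0 with ZT as a factor, 3 without a filter, 2 without the 4 libraries and 0 with a replicate left out. Without the 4 libraries the Cpt1a peak in SPF LKO was at ZT 7.9.

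At single ZT, calls between GF and SPF WT mice were 2 lower and 2 higher without a filter, 0 and 0 from the 6 libraries of both groups alone, 3 higher by DESeq2, and 0 to 1 lower and 0 to 2 higher with a library left out. In LKO mice they were 9 lower and 1 higher without a filter, 1 lower from the 6 libraries alone, 1 higher by DESeq2 and 1 to 3 lower with a library left out. Calls lower in LKO liver, 16 in SPF and 32 in GF mice, were 14 to 20 and 28 to 34 with a library left out.

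Mice of the same replicate number were little alike: of 18 same-numbered pairs in each comparison, 3 to 6 had a correlation of deviations over 0.1. Medians were -0.04 to 0.01 and the highest values 0.16 to 0.44. Low correlations do not show that the mice were unpaired. With a replicate block, members called were 9 lower in SPF and 10 in GF mice between genotypes, 3 higher and 1 lower (Ppara) in GF WT, 1 rhythm in SPF LKO and 0 single-ZT calls higher in GF WT.

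With all ZT pooled, signs turned in uncalled values near 0: Aldh3a2 in WT between GF and SPF without replicate 1 (-0.17 to 0.04 over the 3 replicates), the same comparison in LKO for Cpt1a without ZT10 (-0.00), Cpt2 without ZT2 (-0.02) or ZT22 (-0.00) and Acadvl without ZT18 (0.00), and the interaction for Cpt1a without replicate 2 (-0.10 to 0.04 over the 3) and Hadhb without replicate 3 (-0.10 to 0.00). At single ZT, leaving out 1 library turned the sign of 39 uncalled values of the 240, such as Ppara at ZT10 between GF and SPF WT mice (-0.12 to 0.55), and of 0 called ones. With 3 mice per group and ZT, changes the size of those in Acadvl or Hadhb were rarely called at single times.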
